A study of Mus musculus with 6 samples.

Results

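A set of 8 genes named for resting bulge stem cells was followed over 6 libraries of mouse dorsal skin, from 0 h to 6 d after depilation. They are Cck, Krt24, Cd34, Wfdc3, Clec3b, Il31ra, Kcnk2 and Dlk1, which makes 8 of the 32285 genes in the deposited matrices. They were taken by symbol, and each symbol stands for 1 row of the files. The list had been chosen by the UMI levels and shares of these same libraries, so how the 8 genes moved between 0 h and the later times is described below without a test and supports nothing by itself.

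The skin came from wildtype males of the FVB strain aged p55 to p57, an age at which dorsal follicles rest in telogen. It was shaved and waxed, a procedure that pulls out the hair shafts and starts a new growth phase, anagen. Each library holds cells of 2 mice that were dissociated separately and then mixed in equal numbers, and no label tells those mice apart. There was 1 library each at 0 h, 4 h and 16 h, and then at 2 d, 4 d and 6 d, made with the 10x Genomics 3' kit, so no time point has a replicate. The study's methods describe different enzymes for telogen and anagen skin and do not say which library had which, so digestion and time cannot be told apart. The libraries held 7307 to 13878 barcodes and 72634390 to 112370376 unique molecular identifiers (UMIs, each standing for 1 captured RNA molecule), and 55177 of 61031 barcodes were kept after filtering. Of the barcode sequences, 430 occurred in more than 1 library and 2 in 3 or more.

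The bulge is the niche of the hair follicle stem cells, in the outer root sheath below the sebaceous gland. Its outer layer holds quiescent cells, known in the mouse by CD34, keratin 15 and Lhx2, and its inner layer a keratin 6-positive cell sheet that anchors the club hair. When anagen starts, hair germ and bulge cells divide and build an outer root sheath, a matrix and the layers around the new shaft. Lhx2 is a LIM homeobox factor of these stem cells, Lgr5 an R-spondin receptor of the lower bulge and germ, and Sfrp1 a secreted Wnt inhibitor.

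Barcodes were taken as gated when they held at least 1 UMI of Lhx2, Lgr5 or Sfrp1. Where 6 values follow each other below, they stand in the order of time. This gave 2256, 1810, 3088, 2743, 5530 and 4007 barcodes. The gate was wider than the bulge. Sfrp1 was present in 88.0% of the gated barcodes at 0 h, Lhx2 in 22.3% and Lgr5 in 13.7%, and 1184 of the 2256 held UMIs of Ly6a (SCA-1) together with basal keratins, a pattern of epidermis and upper follicle. Requiring UMIs of at least 2 of the 3 genes left 371, 129, 492, 574, 2881 and 1860 barcodes in the order of time. Among these, Ly6a was present in 14.8% at 0 h against 68.6% in the wider gate, and the outer bulge markers Sox9 and Postn were present in 83.0% and 79.3% against 29.2% and 23.6%. Levels are therefore given for both sets, called gated barcodes and 2-gene barcodes. The 2-gene barcodes also changed in kind and number over time, with 5.36%, 1.68%, 5.64%, 6.02%, 23.2% and 18.8% of kept barcodes. Postn was present in 79.3% of them at 0 h, 41.7% at 4 d and 56.6% at 6 d. Nfatc1, also an outer bulge marker, was present in 41.2%, 19.9% and 36.3%, and Sox9 in 83.0%, 81.2% and 91.9%. Later levels in this set are therefore not those of 1 unchanged cell type. A lower level per UMI can come from fewer cells of a type in the set or from less RNA per cell, and the sums do not tell these apart.

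The genes lie on 6 chromosomes of the mm10 assembly. Cck is at chr9:121489824-121495694 and Clec3b at chr9:123150946-123157432, Krt24 at chr11:99279959-99285262, Cd34 at chr1:194938819-194961279 and Kcnk2 at chr1:189207930-189402273. Wfdc3 is at chr2:164731180-164745931, Il31ra at chr13:112519898-112594360 and Dlk1 at chr12:109452823-109463336. In the GENCODE annotation Il31ra overlaps Gm3226 and Kcnk2 overlaps 2900042K21Rik and Pdcd5-ps on the same strand, so reads of these partners may be hard to assign. On the other strand Cd34 overlaps Gm16897, and Kcnk2 overlaps A430027H14Rik and Gm24092. The 250 bases before the start of Cck, Krt24 and Cd34, the genes with the largest ratio or the most UMIs, are shown as RefSeq gives them for GRCm38.p6, which is C57BL/6 sequence and not FVB. Capitals mark GGAAA, the core bound by NFAT factors, and TAAACA, a forkhead motif, on either strand, since Nfatc1 and Foxc1 are known in the quiescent bulge.
Cck, chr9:121495695-121495944, minus strand: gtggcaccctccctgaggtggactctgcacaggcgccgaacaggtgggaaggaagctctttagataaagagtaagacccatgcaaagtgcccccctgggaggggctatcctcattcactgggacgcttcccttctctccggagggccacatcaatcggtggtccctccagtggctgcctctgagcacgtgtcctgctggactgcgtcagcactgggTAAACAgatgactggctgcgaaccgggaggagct
Krt24, chr11:99285263-99285512, minus strand: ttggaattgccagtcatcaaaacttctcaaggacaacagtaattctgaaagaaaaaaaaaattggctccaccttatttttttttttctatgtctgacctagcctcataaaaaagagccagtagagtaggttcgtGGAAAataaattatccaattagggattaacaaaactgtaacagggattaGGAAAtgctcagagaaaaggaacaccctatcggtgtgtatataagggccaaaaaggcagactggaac
Cd34, chr1:194938571-194938820, plus strand: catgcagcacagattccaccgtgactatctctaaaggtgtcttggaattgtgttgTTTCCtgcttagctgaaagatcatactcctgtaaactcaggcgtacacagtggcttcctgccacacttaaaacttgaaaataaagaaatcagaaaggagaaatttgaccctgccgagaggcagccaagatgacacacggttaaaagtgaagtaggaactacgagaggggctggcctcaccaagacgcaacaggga
GGAAA occurs in 55.6% and TAAACA in 12.03% of all 32850 promoter windows of this length. The Cck window held 1 TAAACA, the Krt24 window 2 GGAAA and the Cd34 window 1 GGAAA. The motif TAATTA, a LIM homeobox motif found in 4.84% of all windows, occurred in none of the windows of the 7 genes that have an entry. Clec3b has no entry in the table used.

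Cck encodes cholecystokinin, a secreted peptide, and had the largest ratio between 0 h and 6 d of the 8 genes. Levels are in CPM, UMI counts scaled to the total UMIs of the summed barcodes. In gated barcodes Cck was 29.1, 6.61, 2.57, 1.72, 1.01 and 0.502 CPM. In 2-gene barcodes it was 225, 89.7, 17.6, 5.87, 1.25 and 0.930 CPM. Every library lay below the one before it in both sets. At 6 d the level was 57.9-fold lower than at 0 h in gated barcodes (95% interval 36.3 to 98.3) and 242-fold lower in 2-gene barcodes (143 to 445). These intervals are exact for UMI counts and cover counting error only, as do all intervals below, and not the difference between mice or libraries. Intervals of CPM and of ratios treat each UMI as independent, so they leave out the spread between barcodes as well. Of the 34 Cck UMIs left in the whole 6 d library, 18 were in gated barcodes, of which 1 barcode held 7, and no UMI was seen among 294 barcodes with T cell markers, which allows up to 2.28 CPM. That limit lies above the gated level of 0.502 CPM, so the T cell class cannot tell this level from a background of free RNA. In 2-gene barcodes at 6 d 14 Cck UMIs lay in 6 barcodes, and the part of free RNA was not tested. Cckar and Cckbr, the cholecystokinin receptors, had at most 2 UMIs in any gated sum.

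Clec3b encodes tetranectin, a secreted lectin that binds plasminogen. In 2-gene barcodes it was 30.5, 19.6, 8.43, 1.01, 0.702 and 0.531 CPM. The 4 h level was within counting error of 0 h, with a ratio of 0.641 whose interval spanned 1, and from 16 h on all libraries were lower. At 6 d it was 57.4-fold lower (27.8 to 138) and rested on 8 UMIs. In gated barcodes the course was 3.98, 1.52, 1.25, 0.327, 1.49 and 0.390 CPM. Of the 71 gated UMIs at 4 d, 18 were in 2-gene barcodes. In the same library 125 barcodes with fibroblast or dermal papilla markers, inside or outside the gate, held 74 of 140 Clec3b UMIs. The T cell class stood at 3.15 CPM at 4 d from 1 barcode with 12 UMIs, above the gated level.

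Wfdc3 belongs to the WAP four-disulfide core family, secreted proteins of which many inhibit proteases. In 2-gene barcodes it was 42.8, 58.6, 6.86, 5.70, 1.33 and 2.46 CPM. In this set it was therefore not lower at 4 h, where the interval of the ratio spanned 1, and was low from 16 h on. At 6 d it was 17.4-fold lower than at 0 h (11.9 to 26.0). In gated barcodes, by contrast, Wfdc3 was already 2.84-fold lower at 4 h than at 0 h (2.26 to 3.60). The 6 d level there was 4.74 CPM against 13.5 at 0 h, a 2.85-fold difference. Most of these 6 d UMIs were outside the 2-gene barcodes, which held 37 of 170. Barcodes with companion layer markers are described below.

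Cd34 encodes a sialomucin of the cell surface that also marks endothelium and some fibroblasts. In 2-gene barcodes it was 540, 255, 207, 41.1, 29.6 and 57.4 CPM. The 6 d level lay above those of 2 d and 4 d and 9.42-fold below 0 h (8.65 to 10.3). In gated barcodes it was 74.6, 19.7, 33.9, 8.34, 19.1 and 26.7 CPM. The level at 6 d was 2.80-fold lower there (2.58 to 3.03), with the lowest level at 2 d.

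Cd34 was lower both in the UMIs of each barcode that held it and in the share of 2-gene barcodes that did. Positive 2-gene barcodes carried 4.70, 3.04, 3.28, 1.55, 1.46 and 1.52 Cd34 UMIs on average. They made up 309 of 371 2-gene barcodes at 0 h (83.3%) and 570 of 1860 at 6 d (30.6%). As a share of all kept barcodes of the library, 2-gene barcodes with Cd34 were 4.46%, 0.953%, 3.68%, 1.66%, 4.198% and 5.75%. At 4 d and 6 d this share of the whole library was near or above its 0 h value while the UMIs per positive barcode were lower. For Il31ra the share was close at both ends, at 2.48% of kept barcodes at 0 h and 2.47% at 6 d. It was 2.90% and 3.90% for Kcnk2 and 2.44% and 0.0605% for Cck.

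Il31ra pairs with Osmr to form the receptor of interleukin 31. It was the gene most reduced at 4 h, with 115, 17.2, 41.2, 17.3, 14.3 and 20.2 CPM in 2-gene barcodes. The 4 h sum held 15 UMIs, and its level was 6.67-fold lower than at 0 h (3.98 to 12.1). In gated barcodes it was 16.0 CPM at 0 h, 1.42 at 4 h and then 6.09, 3.29, 8.69 and 9.90 CPM. The difference at 6 d was then 1.62-fold (1.40 to 1.88) in gated and 5.70-fold (4.85 to 6.70) in 2-gene barcodes. Osmr, the partner chain, was 51.4 CPM at 0 h, 53.1 at 4 h and 40.1 at 6 d in gated barcodes, and Il31 itself had at most 1 UMI in a gated sum.

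Kcnk2 encodes TREK-1, a background potassium channel. In gated barcodes it was 22.0, 14.8, 12.8, 12.4, 10.8 and 21.1 CPM. The 6 d level was within counting error of 0 h, 1.04-fold lower with an interval of 0.933 to 1.17. With totals scaled by TMM the ratio was 0.873 (0.779 to 0.977). In this set Kcnk2 was therefore not lost. In 2-gene barcodes it was 140, 173, 52.4, 25.3, 13.8 and 38.0 CPM. The 4 h library lay above 0 h by a ratio of 1.24 there, on 129 barcodes. Over all kept barcodes the 4 h ratio was 0.700 (0.622 to 0.788). The gate genes were also lower at 4 h over all kept barcodes. Lhx2 stood at 4.925 CPM against 17.4 at 0 h, Lgr5 at 2.80 against 10.8 and Sfrp1 at 34.75 against 44.9. In 2-gene barcodes the 6 d library of Kcnk2 stood 3.67-fold below 0 h (3.22 to 4.19). The direction at 6 d therefore depended on the set of barcodes, and with Sfrp1 alone as the gate the log2 change was 0.27.

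Krt24 encodes a type I keratin found in bulge stem cells. In 2-gene barcodes it was 614, 232, 217, 82.8, 17.2 and 52.3 CPM. It was 35.6-fold lower at 4 d (32.1 to 39.7) and stood 11.7-fold below 0 h at 6 d (10.8 to 12.8). In gated barcodes it was 84.9, 17.7, 30.9, 19.7, 11.9 and 25.0 CPM. Barcodes that held Krt24 carried 6.57, 3.74, 6.57, 4.30, 3.14 and 3.25 of its UMIs on average, with up to 22 in 1 barcode at 6 d. The share of positive 2-gene barcodes went from 67.7% at 0 h to 34.1% at 16 h. The equal averages at 0 h and 16 h stand beside a median depth of 5841 and 7581 UMIs per barcode.

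Dlk1 encodes a non-canonical Notch ligand and did not follow the other genes. It had 9, 27, 24, 0, 1 and 1 UMIs in 4, 10, 15, 0, 1 and 1 gated barcodes. Its level at 4 h was above that at 0 h, by a ratio of 3.47 in gated barcodes and 8.24 in 2-gene barcodes, from 24 UMIs in 8 barcodes. The 0 UMIs at 2 d allow up to 0.0890 CPM. Dlk1 was thus sparse throughout, highest at 4 h and close to undetected from 2 d on. Its paralogue Dlk2 was 25.2 CPM at 0 h, 45.4 at 4 h and 18.9 at 6 d in gated barcodes.

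**Figure D1:**
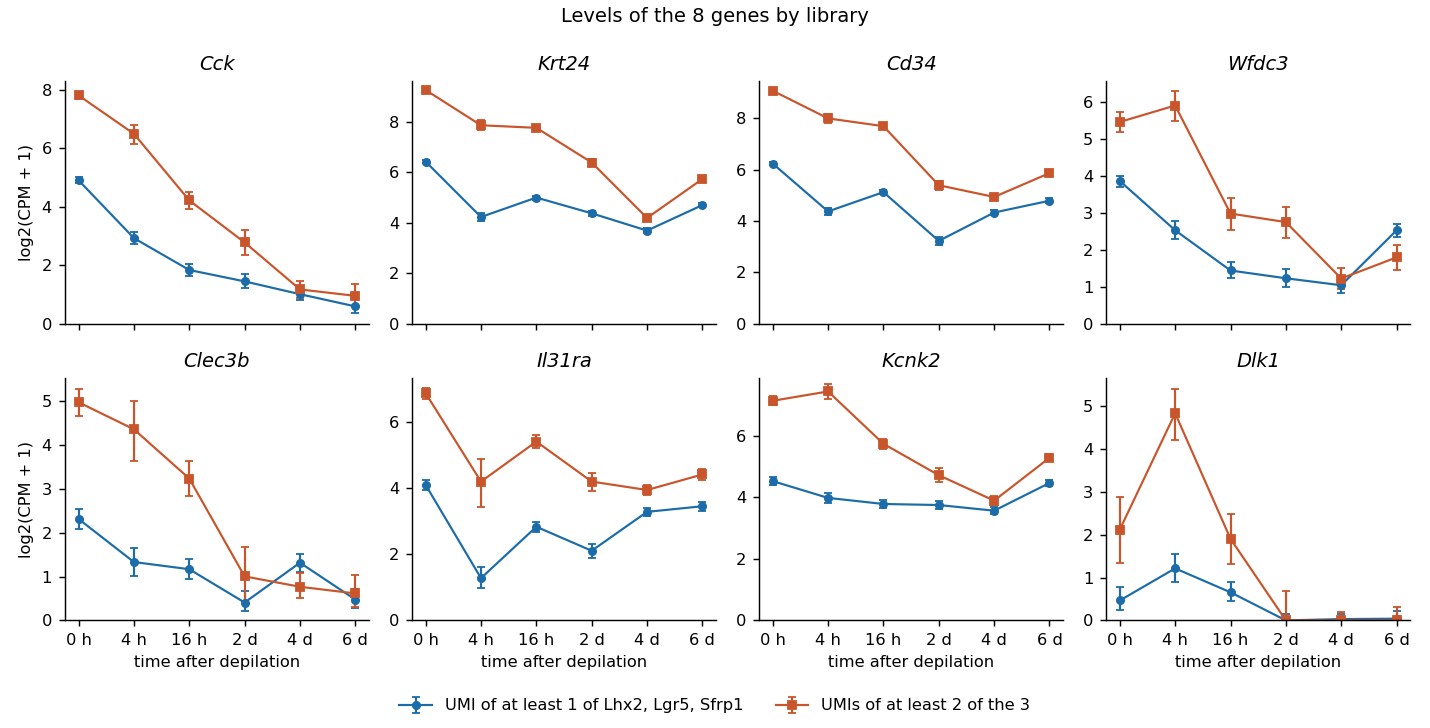
Levels of the 8 genes in each library as log2(CPM + 1) on the vertical axis against time after depilation, in gated barcodes (circles) and 2-gene barcodes (squares), with exact 95% Poisson intervals as bars. Cck goes from 225 to 0.930 CPM in 2-gene barcodes, Kcnk2 in gated barcodes ends at 21.1 CPM near its start of 22.0, and Dlk1 peaks at 4 h.

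The difference from 0 h varied in size between the genes and between the 2 sets. In 2-gene barcodes all 8 genes were lower than at 0 h by 2-fold or more at 2 d, 4 d and 6 d, against 9.94%, 11.7% and 6.02% of 12402 genes tested. Dlk1 counts among the 8 there with 9 UMIs at 0 h and 0 at each of these 3 times. At 4 h it was 4 of 8 against 21.8%, and at 16 h 7 of 8 against 8.81%. In gated barcodes Dlk1 did not pass the filter of a mean of 1 CPM. Of the other 7, 6 were lower by 2-fold or more at 4 h, 16 h, 2 d and 4 d and 5 at 6 d, against 21.3%, 6.46%, 6.84%, 9.64% and 3.42% of 12177 genes. Nothing is read from these counts, since the genes were chosen on this contrast. The median log2 change of all genes tested was at most 0.31 in gated barcodes, at 4 d.

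To compare shares at equal depth, each barcode was thinned at random to 2000 UMIs, and barcodes with fewer were left out (7 of 2256 gated barcodes at 0 h and 52 of 4007 at 6 d). In thinned 2-gene barcodes Cd34 was detected in 60.5% at 0 h (55.4 to 65.6), 36.6% at 16 h and 13.04% at 6 d (11.5 to 14.7). Krt24 was detected in 54.3%, 25.0% and 7.17%, and Cck in 31.4%, 2.44% and 0.217%. In the T cell class at 0 h, which should lack these genes, 1 of 198 thinned barcodes held Cd34, 2 held Krt24 and 1 held Cck, so the shares of the 2-gene barcodes were above background at 0 h. At 6 d no barcode of the 294 in the T cell class held Cd34 or Krt24, which allows up to 2.28 CPM. Median depth before thinning at 0 h was 2803 UMIs in the T cell class and 5841 in 2-gene barcodes.

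**Figure D2:**
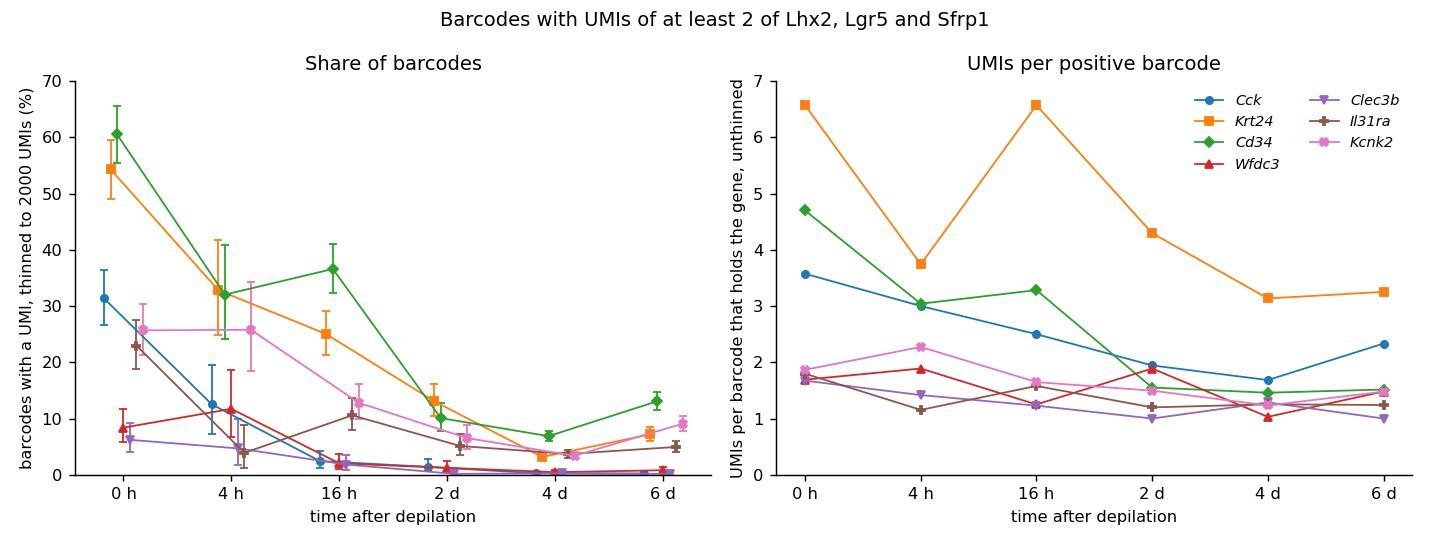
Left, percent of 2-gene barcodes with a UMI of each gene after thinning to 2000 UMIs, with exact 95% Clopper-Pearson intervals, and right, mean unthinned UMIs per barcode that held the gene. Dlk1 is left out for its few UMIs. Cd34 goes from 60.5% to 13.04% of barcodes and from 4.70 to 1.52 UMIs per positive barcode, and Krt24 has 6.57 UMIs at 0 h, 3.74 at 4 h and 6.57 at 16 h.

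At 0 h the genes shared barcodes. Of 251 2-gene barcodes with Krt24, 243 also held Cd34 (96.8%), against 55.0% of those without Krt24. Of 169 with Cck, 155 held Krt24 (91.7%, against 47.5% of those without Cck) and 165 held Cd34. Kcnk2 was found in 70.4% of barcodes with Cck and 40.6% of those without, and Il31ra in 57.4% and 37.1%. These shares move with the depth of a barcode and are given as a description. At 16 h Cd34 still accompanied Krt24 in 152 of 168 barcodes, whereas Cck accompanied it in 32. At 6 d 132 of 242 Krt24 barcodes held Cd34 and 3 held Cck.

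After thinning, 3 or more of the 8 genes were held by 42.4% (37.3 to 47.7), 20.3% (13.7 to 28.3), 9.55% (7.10 to 12.5), 1.24%, 0.881% and 0.924% of 2-gene barcodes. The share with none was 18.6% at 0 h, 86.2% at 4 d and 71.8% at 6 d. Without thinning, 257 of 371 barcodes held 3 or more at 0 h, 51 of 574 at 2 d and 107 of 1860 at 6 d. Up to 8 genes were found in 1 barcode at 0 h, up to 6 at 2 d and up to 4 at 6 d. Barcodes with 3 or more of the genes were thus few from 2 d on but still present. Of single genes, Krt24 was held by 13.07% of thinned 2-gene barcodes at 2 d and Cd34 by 10.07%, and at 6 d Cd34 by 13.04% and Kcnk2 by 9.08%.

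**Figure D3:**
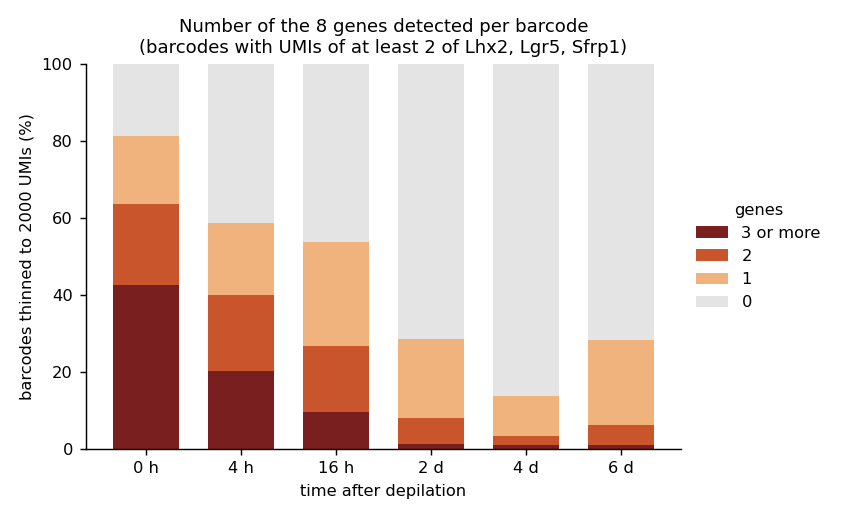
Percent of thinned 2-gene barcodes that held 0, 1, 2 or 3 or more of the 8 genes, 1 bar per library. The share with 3 or more goes from 42.4% at 0 h to 9.55% at 16 h and 0.924% at 6 d.

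Between marker classes the genes parted. Barcodes were put into exclusive classes by UMIs of marker genes. No class was defined for the outer bulge, and 308 of the 371 2-gene barcodes at 0 h had no class. Barcodes with no class had the highest level at 0 h of 7 of the 8 genes among classes of at least 10 barcodes, the exception being Wfdc3. Inside the gate at 0 h lay 98.9% of all Cck UMIs, 98.3% of Cd34, 98.4% of Il31ra and 92.5% of Krt24, and less of Wfdc3 (76.3%) and Kcnk2 (75.3%). These shares changed between libraries. At 4 h the gate held 71.05% of Cck UMIs, 74.9% of Cd34, 63.0% of Il31ra and 76.7% of Krt24. At 6 d it held 52.9%, 99.2%, 97.8% and 91.15% of them in the same order. The 2-gene barcodes held 86.9%, 41.05% and 41.2% of Cck UMIs at 0 h, 4 h and 6 d.

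Wfdc3 was highest at 0 h in barcodes with companion layer markers. In growing follicles the companion layer lies between the inner and outer root sheaths. At 0 h, however, 0 of 6925 kept barcodes were in the inner root sheath and matrix class. The companion layer class was assigned before the inner bulge class, and whether its 0 h barcodes are inner bulge cells was not tested. At 0 h 15 barcodes of the companion layer class held 188 of the 418 Wfdc3 UMIs, 1090 CPM (940 to 1257), and up to 42 in 1 barcode. At 6 d 285 such barcodes held 164 of 275, 55.3 CPM, and at 4 d 202 such barcodes held none, which allows up to 1.495 CPM. The inner bulge class had 46 Wfdc3 UMIs at 0 h, 20 at 4 d and 48 at 6 d. Wfdc3 UMIs thus lay in the companion layer and inner bulge classes as well as in 2-gene barcodes, which held 115 of 418 at 0 h. These sets can share barcodes. Wfdc18, itself 1 of the markers of the companion layer class, went from 0 to 27.2 CPM in 2-gene barcodes at 6 d.

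Dermal and vessel barcodes were few outside the 4 d library. Clec3b was 116 CPM (91.0 to 145) and Cd34 64.2 CPM in 125 barcodes with fibroblast or dermal papilla markers, and Cd34 was 128 CPM in 35 endothelial-marker barcodes. Both genes are known in these cells. Cck was present in barcodes with sebaceous markers, at 55 UMIs in 29 of 219 barcodes at 16 h, 9.56 CPM (7.21 to 12.5). That was above the 2.57 CPM of gated barcodes in that library and below the 17.65 CPM (14.2 to 21.7) of its 2-gene barcodes. Dlk1 had 22 UMIs in 15 barcodes with Ly6a and basal keratins at 16 h, out of 4224. Kcnk2 was spread over epidermal classes, at 4.90 CPM in Ly6a-positive basal barcodes at 0 h and 9.69 at 2 d (8.61 to 10.9), and at 3.34 and 9.92 in interfollicular suprabasal barcodes. The T cell class stood at 1.19 CPM of Kcnk2 at 0 h and 5.14 at 2 d (3.18 to 7.86), so the level in cells that should lack the gene moved the same way. That class was assigned first and no doublet caller was run, so it can hold doublets with keratinocytes. At 2 d 64 of its 960 barcodes were gated. The part of doublets in the T cell levels and of free RNA in the epidermal levels was not tested. Krt24 in suprabasal barcodes, 5.57 CPM at 0 h and 8.99 at 2 d, stood beside 8.31 and 6.37 in the T cell class, and the part of free RNA in it was not tested either.

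**Figure D4:**
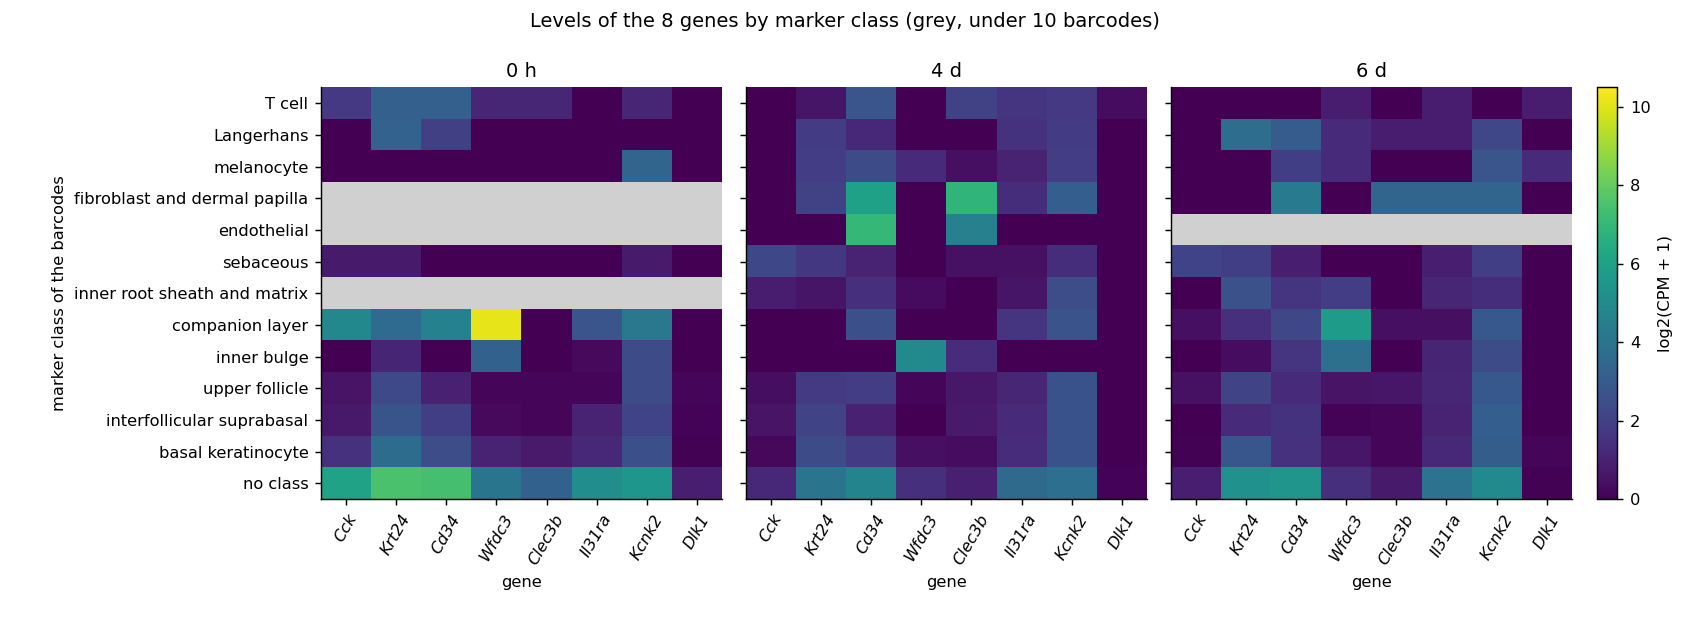
Heat maps of log2(CPM + 1) of each gene (columns) in each marker class (rows) at 0 h, 4 d and 6 d, grey where a class has under 10 barcodes; mast cells are left out for that reason. Wfdc3 is highest in the companion layer class at 0 h, at 1090 CPM, and Clec3b and Cd34 show in the fibroblast class at 4 d, at 116 and 64.2 CPM.

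Cycling and non-cycling barcodes were also compared inside each library. The genes were chosen by levels and shares over time and not by this contrast. They were chosen with earlier results of these data known, and the same UMIs enter both, so this comparison is not independent of that choice. Of the 8 genes, 7 were lower in cycling barcodes and Dlk1 was not separable. A gated barcode was called cycling when it held at least 2 UMIs of 10 cell cycle markers, Mki67 and Top2a among them, after thinning to 2000 UMIs. The share called was 19.1%, 8.14%, 26.8%, 31.2%, 46.9% and 26.7%. Counts were summed per library and class and compared with edgeR's quasi-likelihood test with the library as block, with Benjamini-Hochberg adjustment over 14192 genes, of which 22.3% were called lower and 17.9% higher in cycling barcodes.

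Krt24 was 99.4, 19.4, 39.9, 23.9, 21.4 and 31.4 CPM in non-cycling barcodes. In cycling barcodes of the same libraries it was 32.2, 1.07, 11.02, 11.5, 3.30 and 9.86 CPM. It was lower in cycling barcodes in 6 of 6 libraries, with a log2 difference of -1.90 (SE 0.21, edgeR adjusted p = 1.52e-04). Kcnk2 was lower in 6 of 6 libraries, from 25.0 and 10.8 CPM at 0 h to 24.7 and 12.5 at 6 d, by -1.17 (SE 0.13, edgeR adjusted p = 2.16e-05). Cd34 (-1.18, edgeR adjusted p = 0.00732) and Il31ra (-1.09, edgeR adjusted p = 0.00142) were also lower in all 6. Cck was lower by -1.45 (edgeR adjusted p = 0.00591) in 5 of 6 and Clec3b by -1.91 (edgeR adjusted p = 0.00273) in 5 of 6. Wfdc3 was lower by -0.81 (edgeR adjusted p = 0.0323) in 5 of 6, a call that it lost without 16 h, 2 d or 6 d (adjusted p = 0.0812, 0.0777 and 0.125). Cck lost its call without 0 h (0.0538). Dlk1 differed by 0.01 (SE 0.70, edgeR adjusted p = 0.993), with all 27 UMIs of 4 h in non-cycling barcodes and 13 of 24 at 16 h in cycling ones.

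Cycling gated barcodes were deeper, with a median of 11180 UMIs against 8452 at 0 h and 8578 against 6405 at 6 d. In every library but 4 d a larger share of them was in the Ly6a-positive basal class. Of them, 68.3% were in the Ly6a-positive basal class at 0 h against 49.0% of non-cycling ones, 71.9% against 48.1% at 16 h, 11.5% against 16.1% at 4 d and 26.8% against 18.1% at 6 d. The class was assigned on unthinned UMIs, and the part of depth in its shares was not tested. The part of depth and of cell makeup in the differences was not tested beyond the narrower sets. In 2-gene barcodes, chosen for this test after the data were seen, the 4 h library had 5 cycling barcodes and was left out. In the 5 libraries used, in order of time, 25.6%, 33.7%, 16.9%, 5.31% and 7.87% of cycling ones were in that class, against 9.37%, 11.98%, 7.82%, 3.80% and 4.495% of non-cycling ones. Their median depth was 5901 UMIs in cycling and 5841 in non-cycling ones at 0 h, while cycling ones were deeper in all 4 later libraries used, with 11460 against 7293 UMIs at 16 h. In this set 6 of 8 genes were lower in cycling barcodes, against 18.4% of 11766 genes called lower and 17.0% called higher. Kcnk2 (-1.29, edgeR adjusted p = 1.25e-05), Cd34 (-0.87, edgeR adjusted p = 3.94e-06) and Il31ra (-0.91, edgeR adjusted p = 6.94e-05) were lower in 5 of 5 libraries and kept the call without any 1 library. Krt24 (-1.78, edgeR adjusted p = 0.0332) lost it without 16 h, 2 d or 6 d (adjusted p = 0.0562, 0.106 and 0.117). Cck (-0.83, edgeR adjusted p = 0.0346) lost it without 0 h, 16 h or 2 d (0.101, 0.103 and 0.0581), and Clec3b (-1.13, edgeR adjusted p = 0.0222) without 0 h or 4 d (0.0891 and 0.110). Wfdc3, at -1.06, had an edgeR adjusted p of 0.0640 and was lower in 3 of 5 libraries, and Dlk1 differed by 0.22 (edgeR adjusted p = 0.893). With no class markers at all in the gate, a set also chosen after the data were seen, the same 6 genes were called, Cck and Krt24 at an edgeR adjusted p of 2.10e-06 and 0.0114. Over all genes of that set, 1748 of 11422 were called lower and 1705 higher.

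**Figure D5:**
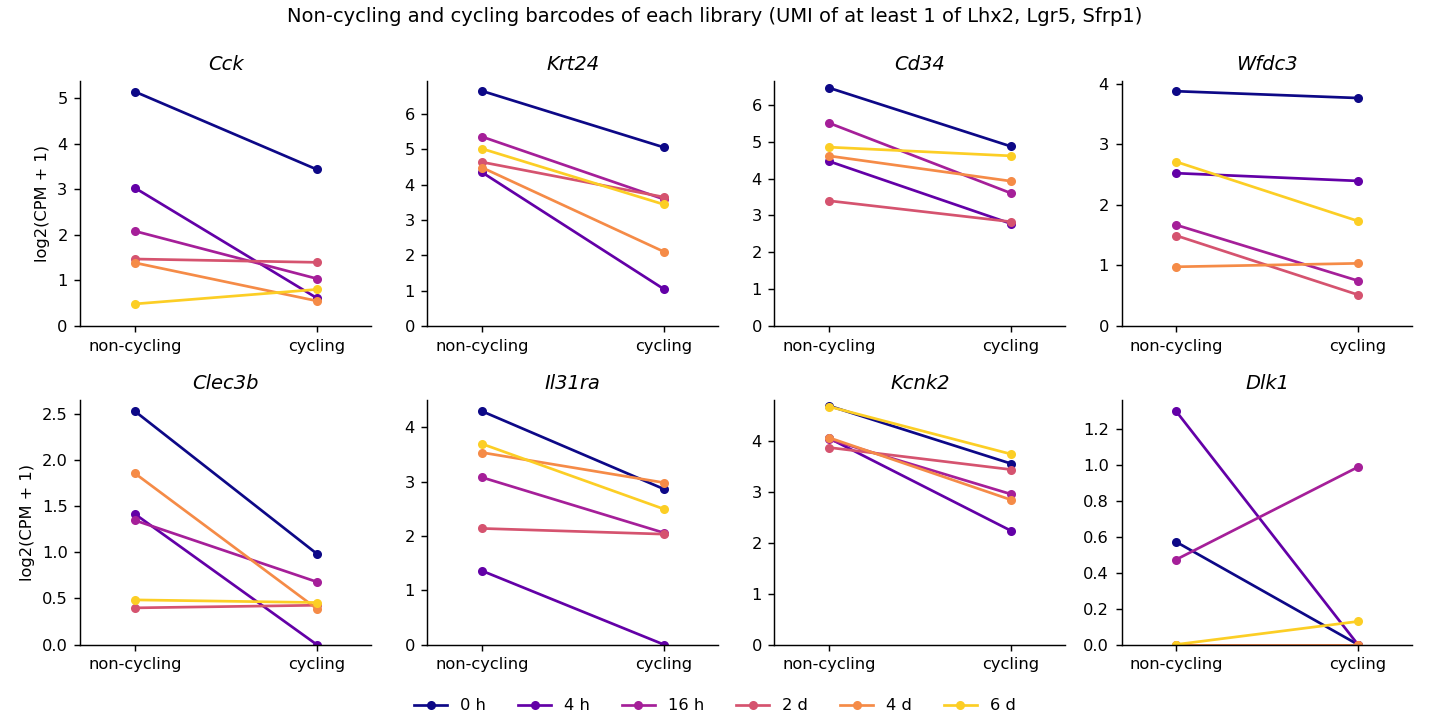
Log2(CPM + 1) of each gene in non-cycling and cycling gated barcodes, 1 line per library. Krt24, Cd34, Il31ra and Kcnk2 are lower in cycling barcodes in 6 of 6 libraries, while Dlk1 goes both ways.

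Other genes of the bulge were read from a list of 28 bulge and quiescence genes, all of which passed the filter. This list was chosen with earlier results of these data known, so its counts are a description and support nothing by themselves. In 2-gene barcodes 12 of 28 were lower at 6 d than at 0 h by 2-fold or more and 1 was higher by as much, against 6.02% and 13.9% of all genes tested. Angptl7, a secreted angiopoietin-like protein, was 85.98 CPM at 0 h and 0.664 at 6 d, Fgf18, a growth factor known to hold follicles in telogen, 62.9 and 2.92, and Ltbp2, which binds matrix fibrils, 74.8 and 4.32. Id1, a target of BMP signalling, went from 1019 to 261 CPM and Grem1, a BMP antagonist, from 256 to 59.0. Sox9, Nfatc1, Foxc1 and Nfix, transcription factors of the bulge, did not halve at 6 d. They were at 431 and 649, 89.3 and 79.9, 75.6 and 71.1 and 550 and 570 CPM. At 4 d they were 406, 37.2, 39.4 and 497 CPM, so Nfatc1 was there lower by 2-fold or more. Of the 28, 17 were lower and 0 higher by 2-fold or more at 4 d, against 11.7% and 22.8% of all genes. The gate gene Lhx2 was 338 CPM at 0 h and 331 at 6 d, but its UMIs help to choose these barcodes, so nothing is read from that level. In all kept barcodes Lhx2 was 17.4 CPM at 0 h and 69.0 at 6 d. In gated barcodes 4 of 28 were lower and 6 higher by 2-fold or more, against 3.42% and 9.39% of all genes, with a median log2 change of 0.03 against -0.62 in 2-gene barcodes. In the cycling comparison 15 of 28 were lower and 2 higher at an adjusted p under the threshold in gated barcodes, and 18 and 0 in 2-gene barcodes. The shares over all genes were 22.3% and 17.9%, and 18.4% and 17.0%. Fgf18 was lower in cycling barcodes by -2.07 (edgeR adjusted p = 3.47e-04) and Bmp6 by -2.01 (edgeR adjusted p = 1.23e-04).

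A list of 24 ligands, receptors and relatives of the 8 genes was read the same way. Of the 17 that passed the filter in gated barcodes, none was lower and 2 were higher by 2-fold or more at 6 d, close to the 3.42% and 9.39% of all genes. Wfdc21 was 159, 56.0, 29.2, 9.70, 11.1 and 291 CPM in gated barcodes. Cd44, a hyaluronan receptor, was 211, 559 and 215 CPM at 0 h, 4 h and 6 d. Of 19 tested between cycling and non-cycling gated barcodes, 8 were lower and 2 higher, against 22.3% and 17.9% of all genes. Of 10 anagen genes, 9 were higher by 2-fold or more at 4 d and 7 at 6 d, against 21.3% and 9.39% of all genes, and 7 were higher in cycling barcodes, against 17.9%. Among them Col14a1 went from 0.127 CPM at 0 h to 109 at 4 d in gated barcodes and Basp1 from 1.10 to 197. Both lists were chosen with earlier results of these data known, so their counts are a description and support nothing by themselves.

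The genes nearest to the 8 in their course were found by the root mean square distance of the log2 change from 0 h over the 5 later libraries, on log2(CPM + 1) in gated barcodes, among 7445 genes of at least 10 CPM at 0 h. The 10 nearest to the median course were Zfp296, Efemp1, Wnt16, Krt32, Socs3, Egfl6, Hspa2, Sh3d21, Atf3 and Letm2, at distances of 0.22 to 0.40. Zfp296 was 20.6 CPM at 0 h and 7.39, 6.60, 4.99, 5.71 and 7.92 afterwards. Wnt16, a Wnt ligand, was 27.1, 10.3, 11.2, 7.15, 6.13 and 12.97 CPM. The single nearest gene was Gm26802 for Cck, Plcxd2 for Krt24, H2-Q10 for Cd34, Fam71a for Wfdc3, Efemp1 for Clec3b, Mitf for Il31ra and Litaf for Kcnk2. None is given for Dlk1, whose few UMIs leave its course nearly flat on this scale. The distance was 0.81 for Cck, the largest, and 0.11 for Kcnk2. Nearness here is over 5 libraries that share the 0 h library, and is a description.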

How the data were processed

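Cells of dorsal skin were captured in 6 libraries, 1 per time point, and sorted into groups by the time in the labels. The authors counted the reads with Cell Ranger 6.1.2 against mm10, per the labels and the file headers, and deposited its filtered matrices of raw UMI counts. The annotation release and the use of intronic reads are not given in the sources used here. The 8 genes, the gene lists and the markers were chosen with earlier results of these data known, and the least marker UMIs per class were settled after the marker sums were seen.

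Barcodes with 500 to 7000 detected genes and at most 10% mitochondrial UMIs were kept. No doublet caller was run, and a gate without markers of another class is given as an alternative. Kept barcodes had a median of 6309 to 10800 UMIs per library. Counts were summed over barcodes and scaled to CPM. Intervals at 95% are exact (Poisson, Clopper-Pearson, conditional binomial for ratios), and a count of 0 was taken as 3 counts for limits and ratios. Classes were assigned in a fixed order by summed UMIs of markers, from at least 3 (endothelial, mast cell, inner bulge) to at least 20 (sebaceous, upper follicle, suprabasal). The T cell class needed at least 10. Time has 1 library per point, so no test over time was made. Cycling and non-cycling sums were compared with edgeR 4.0.16 in R 4.3.3 and called at an FDR of 0.05. The settings were TMM, filterByExpr, robust quasi-likelihood F test, library as block and at least 10 barcodes in both sums. The 10 cell cycle markers were left out. The procedure was tested on simulated data with the same change in every library and no difference in cell makeup. That test cannot speak for data where these differ. With the library as block, p-values measure how the cycling difference varied between libraries that also differ in time. No time point has a replicate library. Alternatives were other gates, thresholds, filters, scaling, DESeq2 1.42.0, no block and leaving out each library. Named genes were the 8, the gate genes, the lists and the genes nearest in course. Promoter windows are from RefSeq, and gene positions from GENCODE.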

Additional observations from a re-analysis of the deposited data

Results flagged for a closer look

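Single libraries per time point leave no group in which a sample can stand apart. There were 9 courses that ran the other way in a marker class than in 2-gene barcodes, where each gene was lower than at 0 h; neither the difference nor its cause was tested, and ratios are CPM at the later time over CPM at 0 h. Cck was 13.8-fold higher in barcodes with sebaceous markers at 16 h, from 1 UMI in 30 barcodes (interval 2.38 to 557). In upper follicle barcodes Cd34 stood higher, 2.36-fold at 16 h and 2.83-fold at 4 d, Il31ra 10.1-fold at 4 d and 9.96-fold at 6 d from 1 UMI, and Kcnk2 2.17-fold at 2 d. In interfollicular suprabasal barcodes Kcnk2 stood higher, 2.97-fold at 2 d and 2.35-fold at 6 d. Wfdc3 stood higher, 3.58-fold in inner bulge barcodes at 4 d, on 20 UMIs in 6 barcodes. The T cell class, which should lack these genes, held 6.94 CPM of Cd34 at 16 h, 5.78 CPM of Cd34 and 2.10 CPM of Il31ra at 4 d. All were above the upper follicle levels of 2.27, 2.72 and 1.21 CPM, and the parts of free RNA and of doublets in these were not tested. The T cell class held 5.14 CPM of Kcnk2 at 2 d against 9.12 and 9.92 CPM in the upper follicle and suprabasal classes.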

How the results depend on the processing

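The number of the 8 genes lower by 2-fold or more at 6 d was 6 in gated barcodes and 5 to 8 under 11 alternatives (the lowest with Sfrp1 alone and with no gate). The 6 include Dlk1, with 9 UMIs at 0 h and 1 at 6 d, which failed the filter of the background. Of the 7 genes that passed it, 5 were lower, against 3.42% of 12177 genes. At 4 d in place of 6 d the number in gated barcodes was 7 with Dlk1, against 9.64%. Nothing is read from these counts, since the genes were chosen on this contrast. Over the alternatives at 6 d the log2 change ranged from -9.07 to -4.64 for Cck, -3.55 to -1.41 for Krt24, -3.24 to -1.04 for Cd34, -4.84 to -0.89 for Wfdc3, -5.84 to -1.998 for Clec3b, -2.51 to -0.30 for Il31ra, -1.96 to 0.27 for Kcnk2 and -4.68 to -1.42 for Dlk1. Kcnk2 alone changed sign, to 0.09 without markers of another class and 0.27 with Sfrp1 alone or no gate; the cause was not tested. The gate without markers of any class was added after the data were seen.

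Between cycling and non-cycling gated barcodes 5717 genes were called, 4326 to 5965 when 1 library was left out. Calls were 3074 without thinning, 828 without the library block and 3453 in gated barcodes without markers of any class. Without the block, where libraries of different times share 1 spread, 1 of the 7 genes kept its call, Kcnk2 (edgeR adjusted p = 0.0180). Over all genes, 260 of 12759 were then called lower and 568 higher. Cck lost its call without 0 h (0.0538), Cd34 with at least 4 marker UMIs (0.0693), and Wfdc3 without 16 h, 2 d or 6 d (0.0812, 0.0777 and 0.125), with at least 1 marker UMI (0.0600) and in both added sets. Dlk1, called nowhere, turned sign in some settings, from 0.495 without 0 h to -0.13 without 6 d, -0.28 without markers of another class, -0.041 with no filter and -0.34 without markers of any class. Among 2-gene barcodes Cck also lost its call with DESeq2 (adjusted p = 0.0507) and Krt24 with no filter (0.0609), while Wfdc3 gained one with DESeq2 (0.0459), with no filter (0.00124) and without 4 d or 6 d (0.00788 and 0.0220). No paired analysis was possible because each time point has 1 library and the labels give no shared replicate numbers; the library block stands in the main design. Dlk1 (1 UMI at 6 d) and Clec3b (14) are limited by depth.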
